A study of Mus musculus with 23 samples.

Results

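The genes described here are 28 genes of cholesterol synthesis and of the transcription factor SREBP2 that controls it, measured in mouse liver under 2 diets and 2 antibodies. They were listed by symbol and not by a cut on their values, though earlier results of these data were known. All 28 were found among the 24475 genes of the deposited RPKM table (reads normalised for the length of the gene and the depth of the library). They comprise 18 enzymes that lead from acetyl-CoA to cholesterol, 4 genes that control SREBP2, 3 genes of sterol transfer, receptor turnover and ester formation, and 3 genes of sterol export. The livers came from male C57BL/6J mice that were kept on chow or on a high-fat diet (HFD) for 4 months. Antibody treatment, at 10 mg/kg, lasted 3 weeks. REGN1193 is the antibody that blocks the glucagon receptor (GCGR). REGN496 was taken as the isotype control by elimination, because the study names an isotype control without its code. There were 5 libraries of chow with control antibody (libraries 1 to 5), 6 of chow with GCGR antibody (6 to 11), 6 of HFD with control antibody (12 to 17) and 6 of HFD with GCGR antibody (18 to 23). Whether every library stands for its own animal is not stated in the labels, and p-values here reflect only how these libraries vary, which may be technical.

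Hepatocytes make cholesterol from acetyl-CoA through mevalonate, isoprene units, squalene and lanosterol. When sterols in the endoplasmic reticulum are low, the escort protein SCAP carries SREBP2 to the Golgi, where it is cleaved into an active factor that turns on the enzyme genes. When sterols are high, the INSIG proteins hold SCAP back. Surplus sterol is esterified, or is sensed by the nuclear receptor LXR, which turns on the exporters that move sterol into bile and to HDL. The level of an mRNA is not the activity of its enzyme or the amount of active SREBP2 protein. In these bulk samples, fewer cells of a type and less RNA per cell cannot be told apart.

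The RPKM of a library summed to 594026 to 692295, and relative depth, read from the steps of low RPKM, ran from 0.865 to 1.15. Libraries 19 and 20 had the lowest mean correlations with the other libraries of their group (0.980 and 0.979). The summed RPKM of 6 hepatocyte markers was 39751 to 57496 in every library, and that of 4 bile duct markers was 1.78 to 4.81. All 28 genes passed the filter on low values. No gene of the 28 had the same values as another gene. Acat2 lies beside Acat3 on chromosome 17, a related gene, and its reads may be shared with it. Annotated exons of 2 of the 28 genes overlap another gene on the same strand (Fdps with Gm43738, Tm7sf2 with Vps51), and those of 8 overlap one on the opposite strand. The libraries are strand-specific, but how strand was used in counting is not given in the sources used here, so these values carry that uncertainty.

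Promoter sequences are shown because the enzyme genes moved together between libraries, as described below. RefSeq windows (GRCm38.p6) of 250 bases before to 50 bases after the start of a gene were at hand for 23 of the 28 genes. Those without a window were Fdft1, Fdps, Soat2, Sqle and Stard4. Each was searched on both strands for TCACNCCAC, a form of the element that SREBP binds, and for CCAAT, the element of its partner NF-Y, which reads ATTGG on the other strand. The SREBP letters were found in 1 of the 23 genes, Hmgcs1, and in 1.45% of 18148 genes of the table. With any first letter (NCACNCCAC) they were found in 3, which were Acat2, Hmgcs1 and Insig1, and in 7.14% of all genes. CCAAT was found in 20 of the 23 and in 42.3% of all genes. It was in 13 of the 14 genes that moved with Sqle at an adjusted p under 0.05 (limma, described below). It was also in 7 of the 9 others. Mvk held the most, 5 matches, followed by Hmgcs1 and Nsdhl with 4 each. A match is a description of letters and not evidence of binding. The 250 bases before the start are printed for Hmgcs1, which held the SREBP letters, and for Msmo1 and Nsdhl, which were added after their values were seen because they had the smallest p for moving with Sqle. Capitals mark the matches. In Hmgcs1 (chr13:119690101-119690350, plus strand) they are 3 CCAAT matches and the SREBP match, which begins 137 bases before the start. In Msmo1 (chr8:64733579-64733828, minus strand) and Nsdhl (chrX:72918271-72918520, plus strand) they are 3 and 2 CCAAT matches.
Hmgcs1: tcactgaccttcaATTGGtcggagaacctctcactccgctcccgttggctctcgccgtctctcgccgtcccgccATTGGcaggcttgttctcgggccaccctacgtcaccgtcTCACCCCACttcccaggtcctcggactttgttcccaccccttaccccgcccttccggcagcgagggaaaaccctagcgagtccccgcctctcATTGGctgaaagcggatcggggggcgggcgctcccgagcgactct
Msmo1: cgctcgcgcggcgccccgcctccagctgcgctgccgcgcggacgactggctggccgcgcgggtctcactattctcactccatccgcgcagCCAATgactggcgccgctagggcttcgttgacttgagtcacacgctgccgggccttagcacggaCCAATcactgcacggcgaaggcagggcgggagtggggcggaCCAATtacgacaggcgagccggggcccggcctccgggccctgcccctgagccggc
Nsdhl: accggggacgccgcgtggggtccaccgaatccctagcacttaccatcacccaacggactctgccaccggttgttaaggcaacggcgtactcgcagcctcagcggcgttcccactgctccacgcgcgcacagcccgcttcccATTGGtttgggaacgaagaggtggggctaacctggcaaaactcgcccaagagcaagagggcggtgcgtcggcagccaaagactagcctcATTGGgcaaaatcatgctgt

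Among the 18 enzymes, Fdps, which makes farnesyl diphosphate, had the highest median level over the 23 libraries, 225 RPKM. Sc5d, a desaturase of the last steps, had a median of 213 RPKM, Hmgcs1, the HMG-CoA synthase, 154 RPKM, and Lss, which closes the rings to lanosterol, was the lowest at 11.3 RPKM. Of the other 10 genes, Insig1, a retention protein that is itself an SREBP target, had a median of 161 RPKM. Mylip, a ligase that marks lipoprotein receptors for degradation, had a median of 2.48 RPKM, the lowest of the 28.

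The enzymes differed more between libraries of the same group than most genes did. Their within-group SD on the log2(RPKM + 1) scale had a median of 0.37, against 0.15 over all 11939 genes tested. The SD of each enzyme was larger than that of 80.0% to 96.9% of those genes. Sqle, squalene epoxidase and a committed step of sterol synthesis, had the largest SD of the 28, 0.48. Soat2, which esterifies cholesterol in the liver, had the smallest, 0.13.

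**Figure D1:**
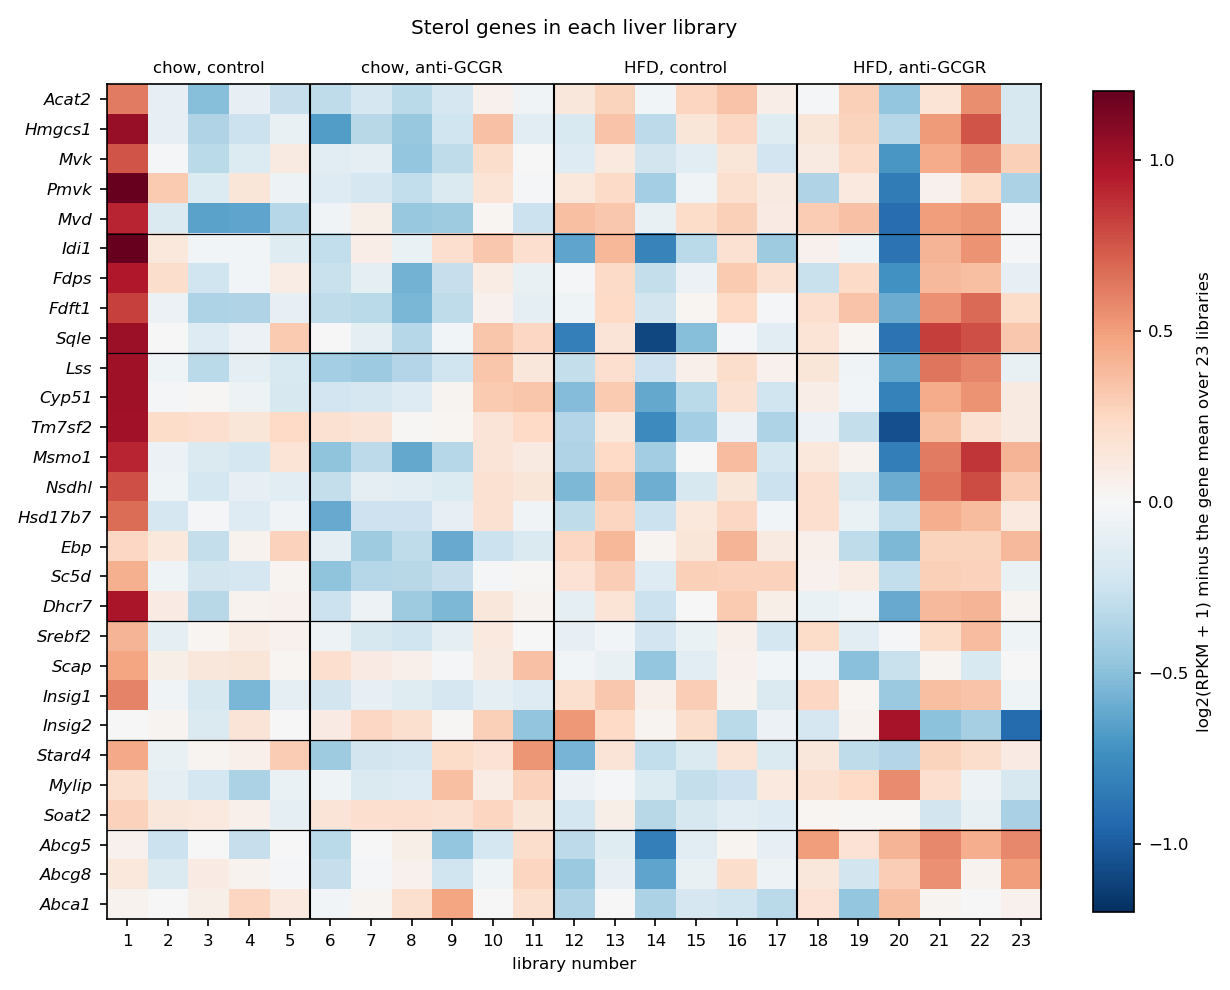
Heat map of the 28 genes (rows, ordered by role and separated by lines) in the 23 libraries (columns, separated by group). Colour gives log2(RPKM + 1) minus the mean of the gene over all libraries, red higher and blue lower. Library 1 is the reddest column over the enzymes and library 20 the bluest, and Insig2 is red in library 20.

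Library 1, a chow library with control antibody, stood above the rest of its group. Its RPKM was a median of 1.99 times the median of the other 4 libraries over the 18 enzymes, from 1.12 times for Ebp, a sterol isomerase, to 2.78 times for Mvd, which makes isopentenyl diphosphate. It was the highest of its group for 17 of the 18 enzymes and for 8 of the other 10 genes, while it was the highest for 19% of all genes tested. Its hepatocyte marker sum was also the highest of its group, 53818 against 42650 to 46508. Library 20, an HFD library with GCGR antibody, lay below the rest of its group, with a median ratio of 0.523 over the enzymes, from 0.389 for Mvd to 0.765 for Sc5d. It was the lowest of its group for 18 of the 18 enzymes, against 15.5% of all genes. Its neutrophil marker sum was 16.9 RPKM, against 1.64 to 3.47 in the other libraries of its group, and its part in the result was not tested.

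Insig2, the INSIG form that is not driven by SREBP2 in the liver, went the other way in library 20. It was 163 RPKM there and 42.8 to 84.8 RPKM in the other 5 libraries of that group. In library 1 it was 82.0 RPKM, inside the 72.6 to 91.7 RPKM of its group. Smaller shifts of the enzymes were seen elsewhere. Libraries 10, 13, 16, 21 and 22 lay above their group median for 18 of 18 enzymes, and libraries 8 and 14 for 0. Most enzymes were thus high or low in the same libraries.

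The extent of this was measured with Sqle as the reference, taken because it is a committed step under SREBP2 control. The slopes come from the same libraries in which the enzymes were seen to move together, so they describe that pattern and are not independent evidence of it. A model with the 4 group means and the log2(RPKM + 1) level of Sqle was fitted to every gene, so that the slope gives the log2 change of a gene per log2 change of Sqle between libraries of the same group. With limma and Benjamini-Hochberg adjustment over all 11938 genes, 30 genes had a slope with an adjusted p under 0.05, which is 0.251% of them (0.235% positive and 0.0168% negative). Of these 30, 17 belong to the 27 sterol genes other than Sqle, all with positive slopes. They were 16 of the other 17 enzymes and Stard4, which carries sterol between membranes. The steepest was Msmo1, the sterol methyl oxidase, at 0.86 ± 0.07 (SE, adjusted p = 1.01e-06). Idi1, the isomerase of the isoprene units, had 0.84 ± 0.09 (adjusted p = 1.24e-05), and Cyp51, the lanosterol demethylase, had 0.78 ± 0.07 (adjusted p = 1.91e-06). Nsdhl, which works beside Msmo1, had 0.75 ± 0.07 (adjusted p = 1.01e-06). The slopes of the other called genes lay between 0.38 for Sc5d and 0.73 for Lss. Ebp, with a slope of 0.37 ± 0.08, had an adjusted p of 0.0529. It lay at the threshold and passed with the stricter filter (adjusted p = 0.0469), after median-ratio scaling (adjusted p = 0.0294), after quantile normalization (adjusted p = 0.0216) and without any one of libraries 1 (0.41 ± 0.09, adjusted p = 0.0414), 6, 9, 12, 17, 19 (adjusted p = 0.0473) or 23. Most called genes had 36 alternative fits of the slope, and Ebp did not pass in the others.

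Most control and export genes had flatter slopes that did not pass. Srebf2, which encodes SREBP2, had 0.23 ± 0.06 (adjusted p = 0.127), and Insig1 had 0.37 ± 0.09 (adjusted p = 0.136). The slope of Srebf2 passed after median-ratio scaling (0.24 ± 0.05, adjusted p = 0.0337) and quantile normalization (0.25 ± 0.05, adjusted p = 0.0209). With Hmgcs1 in place of Sqle as the reference, both Srebf2 (0.30 ± 0.06, adjusted p = 0.0299) and Insig1 (0.51 ± 0.09, adjusted p = 0.0127) passed, and Insig1 also passed without library 17 (0.40 ± 0.09, adjusted p = 0.0437). In the rest of the alternative fits neither gene passed. Insig2 had the lowest estimate, -0.48 ± 0.15, which also did not pass (adjusted p = 0.234). The slopes of Abca1, Mylip and Soat2 were -0.03 ± 0.09, 0.00 ± 0.10 and 0.04 ± 0.06. Those of the 3 exporters ran from -0.03 to 0.22 with a median of 0.21. At an unadjusted p under 0.05 there were 4 of the 4 control genes and 1 of the 3 exporters. Among 36 related genes outside the 28 (SREBP processing, sterol uptake, LXR and HDL, isoprenoids, acetyl supply, electron supply), 1 passed. It was Acss2, which makes cytosolic acetyl-CoA from acetate, at 0.78 ± 0.08 (adjusted p = 2.68e-06). Mmab, the neighbour of Mvk, was noticed among the remaining 12 after the values were seen (slope 0.35 ± 0.06, adjusted p = 0.0117). The genes share libraries and scaling with Sqle, which is part of what the slope measures.

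**Figure D2:**
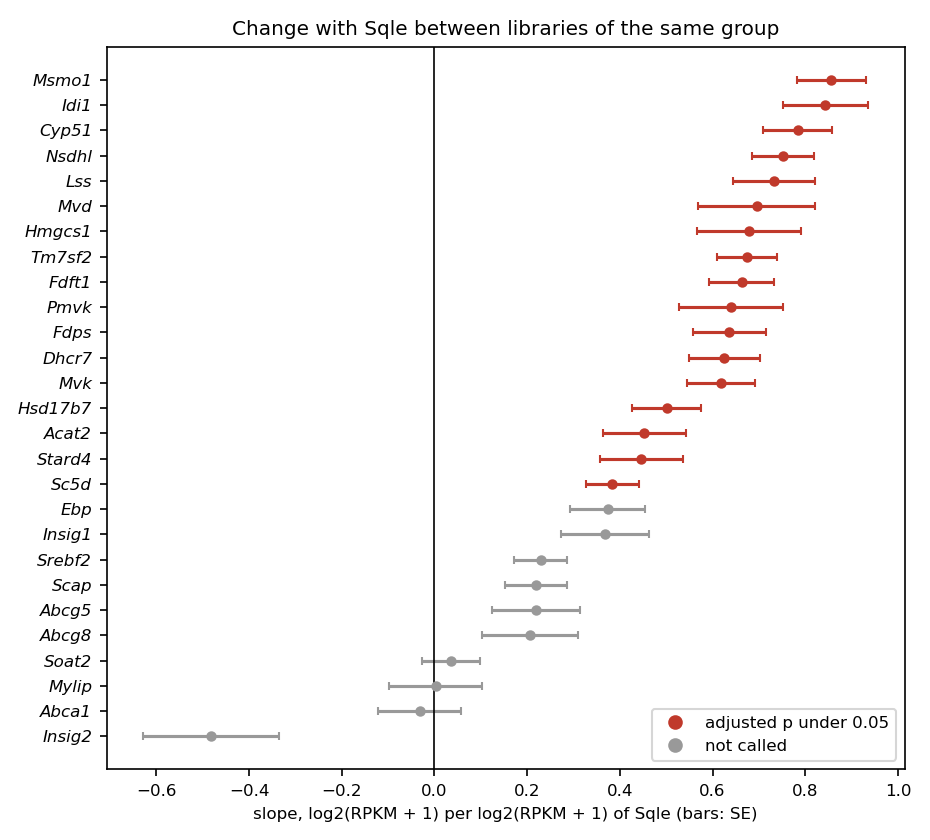
Slope of each of 27 sterol genes on Sqle (horizontal axis, log2(RPKM + 1) per log2(RPKM + 1) of Sqle) between libraries of the same group, with its SE. The 17 genes in red passed at an adjusted p under 0.05, and Insig2 is at the bottom with -0.48.

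The number of genes called depended on libraries 1 and 20, the 2 that lay farthest from their group in Sqle. Without them 8 of the 17 remained called (11 genes in all), and the median slope of the 17 other enzymes was 0.51 in place of 0.66, positive for 17 of 17. Msmo1 then had 0.74 ± 0.11 (adjusted p = 0.00247) and Nsdhl 0.71 ± 0.10 (adjusted p = 0.00197), whereas Hmgcs1 no longer passed (0.59 ± 0.14, adjusted p = 0.191). Among chow libraries alone 6 passed, and among HFD libraries alone 10. The share of all genes given above belongs to the fit of all 23 libraries, and these 2 counts are not set against one.

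The design asks first what GCGR blockade did on chow. The enzymes lay in overlapping ranges under both antibodies, and 0 of the 28 genes passed, against 0.946% of all genes tested (0.394% higher and 0.553% lower; limma, adjusted p under 0.05). The groups overlapped for each of the 28, and did not for 2.5% of all genes. At an unadjusted p under 0.05 there were 2, Ebp at -0.40 ± 0.14 (adjusted p = 0.289) and Fdps at -0.40 ± 0.19 (adjusted p = 0.462). The differences of 18 of 18 enzymes were negative, with a median of -0.23 against 0.03 for all genes. This rested on library 1. Without it the median was -0.04 and 6 of the 18 were positive.

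The levels of the genes behind this comparison were as follows. Hmgcs1 in the 5 chow libraries with control antibody was 352, 158, 131, 142 and 160 RPKM (libraries 1 to 5), and under GCGR antibody it ran from 106 to 217 RPKM with a median of 139. Sqle was 63.1, 30.2, 27.3, 28.9 and 37.9 RPKM with control antibody, and 23.8 to 38.5 RPKM with a median of 29.96 under GCGR antibody. In both genes library 1 alone lay above all libraries of the other antibody. Srebf2 was 17.8, 12.2, 13.4, 14.1 and 13.7 RPKM, against 11.1 to 14.4 with a median of 12.4. Insig1 was 252, 163, 146, 114 and 155 RPKM, against a narrow 143 to 156 with a median of 151. Their ranges overlapped, and their adjusted p were 0.702, 0.842, 0.538 and 0.886.

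On HFD, GCGR blockade raised Abcg5, and this was the single one of the 28 genes to pass (7.45% of all genes passed, 5.33% higher and 2.12% lower). Abcg5 encodes one partner of the ABCG5/ABCG8 pump, which moves sterol from hepatocytes into bile. It was 15.3 to 28.5 RPKM with a median of 25.0 in the 6 HFD libraries with control antibody. Under GCGR antibody it was 31.4 to 41.9 RPKM with a median of 38.7. The 2 groups did not overlap, which held for 2.85% of all genes. The difference was 0.69 ± 0.12 (SE, log2; adjusted p = 0.00119), with means of 23.6 ± 4.57 and 38.3 ± 3.89 RPKM (SD, n = 6 each). It passed in each of the 33 alternative fits, with adjusted p from 2.98e-04 to 0.00887. The hepatocyte marker sum went the other way, 47452 to 57496 with control antibody and 41116 to 45915 under GCGR antibody. Its 6 markers did not move together, as Alb was called lower and Cyp2e1 higher. Of 5 endothelial markers Lyve1 was called higher, of 4 T cell markers Cd3g was (summed RPKM 0.723 to 1.32 with control antibody and 1.12 to 3.11 under GCGR antibody), and of 3 red blood cell markers Alas2 was called lower (230 to 1645 and 158 to 1204). The part of these cells in the result was not tested.

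The other exporters lay higher in the same direction without passing. Abcg8, its partner in the pump, was 15.1 to 27.8 RPKM with a median of 22.2 under control antibody. Under GCGR antibody it was 20.3 to 35.3 RPKM with a median of 27.98 (0.40 ± 0.13, adjusted p = 0.0650). Abca1, which loads cholesterol onto HDL particles and is an LXR target like the pump, was 15.9 to 20.96 RPKM with a median of 17.1. Under GCGR antibody it was 14.9 to 27.3 RPKM with a median of 21.6 (0.28 ± 0.11, adjusted p = 0.113). Both pairs of ranges overlapped, and library 19 was the lowest of its group for the 3 exporters. Without library 19 Abcg8 (0.49 ± 0.13, adjusted p = 0.0150) and Abca1 (0.37 ± 0.09, adjusted p = 0.00838) passed. Leaving out the lowest library of the higher group must enlarge the difference, so this fit is not further evidence of a rise. Abcg5 lies on chromosome 17 at 84658174 to 84683011 (GRCm38.p6, minus strand) and overlaps Abcg8 on the opposite strand at 84676302 to 84700333.

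On chow, the difference of Abcg5 under GCGR antibody was -0.02 ± 0.13 (adjusted p = 0.977). Its level was 28.7, 23.01, 27.6, 22.8 and 27.9 RPKM with control antibody, and 19.9 to 32.3 RPKM with a median of 25.7 under GCGR antibody. The test of whether the antibody effect differed between diets gave 0.71 ± 0.18 for Abcg5, which did not pass (adjusted p = 0.124). In that test 0 of the 28 genes and 0.201% of all genes passed (0.126% higher and 0.0754% lower), and 4 of the 28 had an unadjusted p under 0.05. Without libraries 19 and 20 Abcg5 passed (0.79 ± 0.19, adjusted p = 0.0440), but library 19 was the lowest of its group for this gene. Averaged over both diets, Abcg5 was the single gene of the 28 called higher and 0 were called lower (0.34 ± 0.09, adjusted p = 0.0253), against 7.71% of all genes (5.27% higher and 2.44% lower). That averaged call ended without library 2 (adjusted p = 0.0505) and after median-ratio scaling (adjusted p = 0.0683), which called Ebp lower instead.

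**Figure D3:**
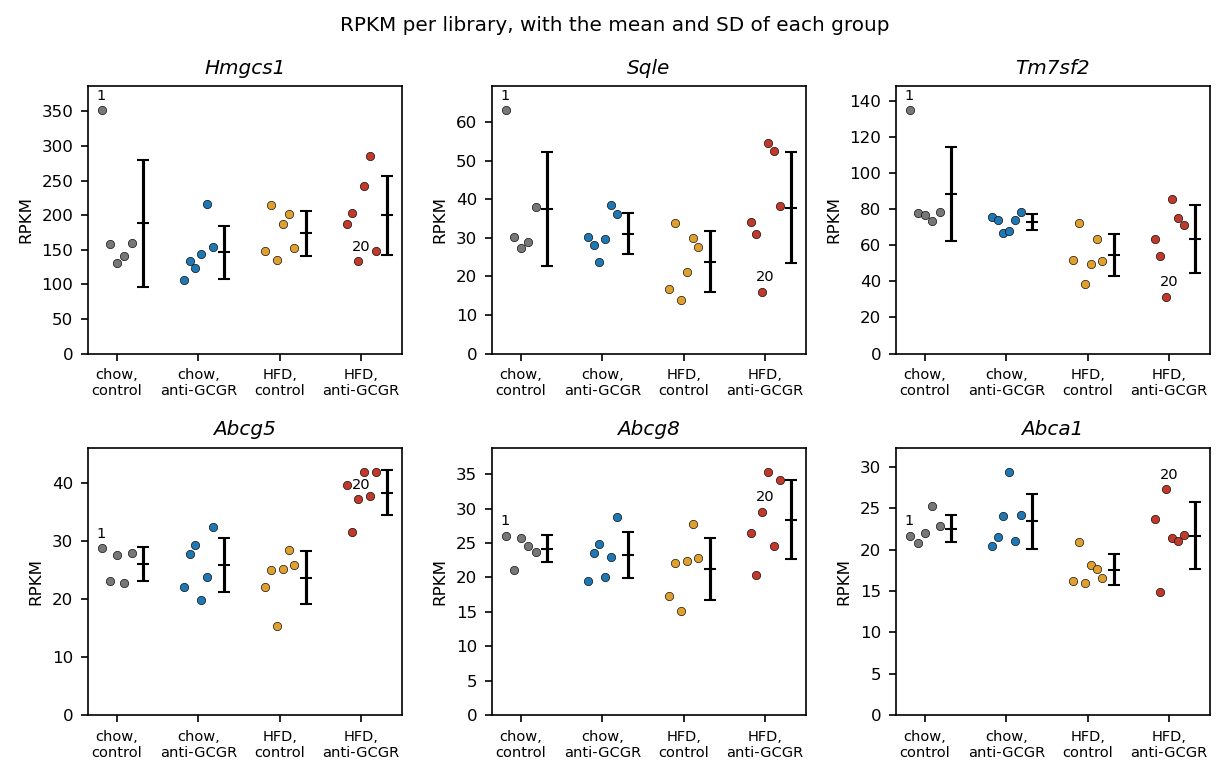
RPKM of Hmgcs1, Sqle, Tm7sf2, Abcg5, Abcg8 and Abca1 in each library (points) of the 4 groups, with the group mean and SD (bars); libraries 1 and 20 are numbered. Abcg5 in HFD libraries with GCGR antibody (31.4 to 41.9) lies above those with control antibody (15.3 to 28.5).

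Of the 18 enzymes, 0 passed for GCGR blockade on HFD, 11 differences were positive and 7 negative, and the median was 0.15 against 0.05 over all genes. Sqle had the largest difference, 0.61 ± 0.26 (adjusted p = 0.147). It was 13.8 to 33.9 RPKM with a median of 24.3 with control antibody and 16.04 to 54.7 RPKM with a median of 36.2 under GCGR antibody, so the groups overlapped. Hmgcs1 was 136 to 215 RPKM with a median of 170, against 133 to 286 RPKM with a median of 195 (0.17 ± 0.22, adjusted p = 0.658). Srebf2 was 11.1 to 13.8 RPKM with a median of 12.3, against 12.03 to 17.4 RPKM with a median of 14.3 (0.20 ± 0.09, adjusted p = 0.165). Insig1 was 148 to 209 RPKM with a median of 183, against 122 to 216 RPKM with a median of 185 (-0.04 ± 0.14, adjusted p = 0.886). The ranges of these 3 genes overlapped as well.

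These results changed when libraries that stood apart were left out. Without libraries 1 and 20, a choice made after their enzyme levels were seen, 3 of the 28 genes and 735 of all genes were called on HFD under GCGR antibody, the 3 as higher. They were Abcg5 (0.70 ± 0.14, adjusted p = 0.00283), Sqle (0.83 ± 0.20, adjusted p = 0.0142) and Mvk, the mevalonate kinase (0.41 ± 0.11, adjusted p = 0.0302). Without libraries 19 and 20, 5 were called higher, Abca1, Abcg5, Abcg8, Nsdhl and Sqle, and 1 was called lower, Insig2 (-0.60 ± 0.16, adjusted p = 0.0165), while calls over all genes rose from 889 to 1305. Without libraries 1, 19 and 20 it was 10 higher and 1 lower, with 1242 calls over all genes. Library 20 decided the call of Sqle, which passed without it (0.83 ± 0.23, adjusted p = 0.0292). It was the lowest of its group for each enzyme, and library 19 for each exporter. Leaving out such a library must raise the difference, so the calls gained for enzymes and exporters are not further evidence of a rise. For Insig2, library 20 was the highest of its group. Leaving it out must lower that difference, so the call of Insig2 is not further evidence of a fall. Whether library 20 is a sound member of its group was not tested.

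The diet was compared within each antibody. Under control antibody, 4 of the 28 genes were lower on HFD and 0 higher. That is 14.3% of the 28, against 29.9% of all genes tested (11.6% higher and 18.3% lower). Tm7sf2, a sterol reductase, fell from 135, 77.7, 76.6, 73.7 and 78.5 RPKM on chow to 38.6 to 72.5 RPKM with a median of 51.5 on HFD. The groups did not overlap, which held for 15.9% of all genes, and the difference was -0.67 ± 0.20 (adjusted p = 0.0136). Soat2 was 21.8, 19.7, 19.4, 18.7 and 16.4 RPKM on chow and 13.98 to 18.8 RPKM with a median of 15.8 on HFD (-0.25 ± 0.08, adjusted p = 0.0183). Abca1 was 21.7, 20.9, 22.1, 25.2 and 22.8 RPKM on chow and 15.9 to 20.96 RPKM with a median of 17.1 on HFD (-0.35 ± 0.11, adjusted p = 0.0218). Scap, the escort of SREBP2, was 41.8, 31.4, 32.9, 33.2 and 30.4 RPKM on chow and 21.4 to 30.9 RPKM with a median of 28.6 on HFD (-0.29 ± 0.10, adjusted p = 0.0375). The ranges of these last 3 genes overlapped, those of Abca1 and Scap only at their ends. Hmgcs1 (-0.03 ± 0.23, adjusted p = 0.929), Insig1 (0.18 ± 0.15, adjusted p = 0.384) and Srebf2 (-0.19 ± 0.09, adjusted p = 0.129) did not pass.

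Markers of other cells also differed between these groups. The summed RPKM of 3 red blood cell markers was 121 to 254 on chow and 230 to 1645 on HFD, with Hbb-bt called higher. That of 3 adipocyte markers was 0.702 to 2.84 on chow and 4.40 to 74.5 on HFD, with Cfd called higher and 1 or 2 of the 3 at 0 in each of these HFD libraries. The endothelial marker Lyve1 was called higher as well. Of 6 hepatocyte markers, Asgr1 and Ttr were called higher and Cps1 lower, and the part of any of these cells in the result was not tested.

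Library 1 bore on this comparison too. Without it, Tm7sf2 (-0.51 ± 0.19, adjusted p = 0.0508), Soat2 (-0.21 ± 0.08, adjusted p = 0.0603) and Scap (-0.21 ± 0.10, adjusted p = 0.126) no longer passed, and 2 enzymes were called higher. These were Mvd (0.65 ± 0.20, adjusted p = 0.0227) and Acat2, which makes acetoacetyl-CoA (0.42 ± 0.14, adjusted p = 0.0325). Without library 4 the call of Abca1 ended with a difference of similar size (-0.31 ± 0.12, adjusted p = 0.0639), and that of Scap ended in 9 of 33 alternative fits. Without libraries 1 and 20 Tm7sf2 passed (-0.51 ± 0.13, adjusted p = 0.00639), as did Abca1, and Acat2, Insig1, Mvd and Sc5d were called higher. Counts over all genes in these refits are not given here, so the calls gained are not set against them. The median difference of the 18 enzymes was -0.14 with all libraries, with 5 positive, and 0.06 without library 1, with 12 positive, so their direction as a group turned with 1 library. Sqle had -0.63 ± 0.27 and did not pass (adjusted p = 0.0807), but passed without library 20 (-0.63 ± 0.23, adjusted p = 0.0380), which takes no part in these groups other than through the pooled spread.

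Under GCGR antibody, HFD raised Abcg5 and lowered Soat2 and Scap, which is 10.7% of the 28 against 29.8% of all genes (13.2% higher and 16.6% lower). This comparison shares the HFD libraries with GCGR antibody with the antibody comparison above. Abcg5 rose from 19.9 to 32.3 RPKM (median 25.7) on chow to 31.4 to 41.9 RPKM (median 38.7) on HFD, with a slight overlap (0.56 ± 0.12, adjusted p = 0.00183). Soat2 fell from 19.9 to 21.6 RPKM (median 20.6) to 13.5 to 18.2 RPKM (median 17.4) with no overlap, which held for 10.3% of all genes (-0.30 ± 0.07, adjusted p = 0.00437). Scap went from 29.5 to 38.5 RPKM (median 32.2) to 20.8 to 30.6 RPKM (median 27.6), with overlapping ranges (-0.30 ± 0.10, adjusted p = 0.0244). The call of Scap ended in 5 of 33 alternative fits, among them those without library 11 (adjusted p = 0.0612) and without library 19 (adjusted p = 0.0691). The calls of Abcg5 and Soat2 held in each of the 33 alternative fits.

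For the enzymes under GCGR antibody, 15 of 18 differences between HFD and chow were positive with a median of 0.26, against -0.02 over all genes, and 0 passed. Nearest to the threshold were Fdft1, squalene synthase (0.49 ± 0.19, adjusted p = 0.0519), Ebp (0.34 ± 0.13, adjusted p = 0.0601) and Sc5d (0.30 ± 0.12, adjusted p = 0.0624). Hmgcs1 had 0.44 ± 0.22 (adjusted p = 0.134) and Insig1 0.23 ± 0.14 (adjusted p = 0.230). Sqle had 0.19 ± 0.26 (adjusted p = 0.604) and Srebf2 0.18 ± 0.09 (adjusted p = 0.120). Without library 20, 6 of the 28 genes were called higher, which were Abcg5, Ebp, Fdft1, Msmo1, Mvk and Sc5d. Library 20 was the lowest of its group for each enzyme, and the count over all genes without it is not given here. Without libraries 1 and 20, 12 were called higher and 3 lower, while calls over all genes went from 3562 to 3771. Among them were Fdft1 (0.66 ± 0.11, adjusted p = 1.99e-04), Mvd (0.51 ± 0.12, adjusted p = 0.00329), Msmo1 (0.66 ± 0.17, adjusted p = 0.00631) and Insig1 (0.34 ± 0.10, adjusted p = 0.0133), and Insig2 was lower (-0.45 ± 0.16, adjusted p = 0.0364). In the same comparison with all libraries, 4 of 5 stellate cell markers (Col3a1, Dcn, Col1a1 and Pdgfrb) were higher. The summed RPKM of the 5 went from 76.1 to 80.9 on chow to 71.5 to 168 on HFD, with libraries 19 and 20 the highest. The Kupffer cell markers Csf1r and Clec4f (2 of 5), the endothelial marker Kdr and the bile duct marker Sox9 were lower, and Cd3g and the endothelial marker Lyve1 were higher. Alas2, 1 of 3 red blood cell markers, was lower too, though the median sum of the 3 was 308 RPKM on chow and 685 RPKM on HFD. Of 6 hepatocyte markers, Asgr1 and Cyp2e1 were higher and Cps1 lower. The part of these cells in the results was not tested.

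**Figure D4:**
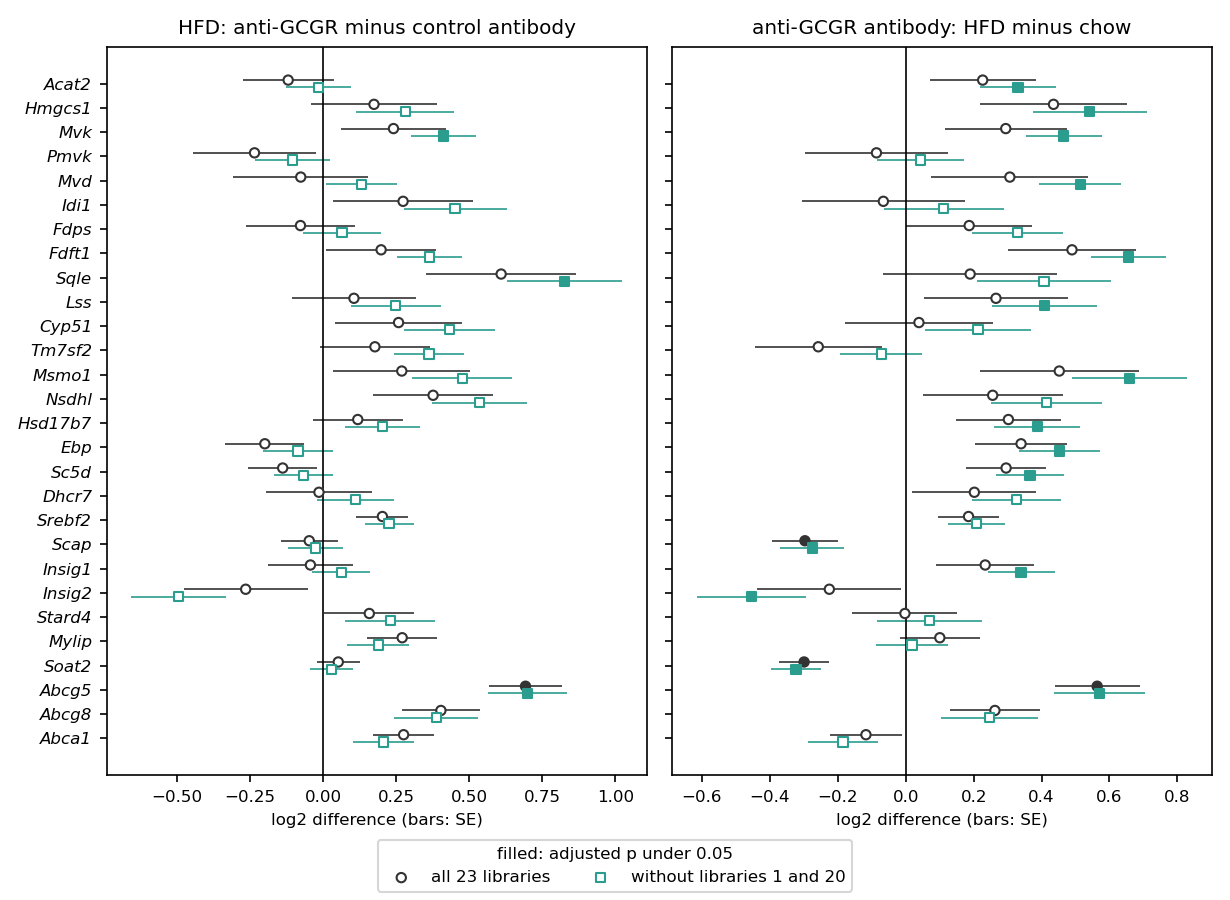
Log2 difference with its SE for the 28 genes, for GCGR antibody against control antibody on HFD (left) and for HFD against chow under GCGR antibody (right), with all 23 libraries (circles) and without libraries 1 and 20 (squares). Filled symbols passed at an adjusted p under 0.05; Abcg5 is filled in both fits on both sides, and Sqle on the left is filled only without the 2 libraries.

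Of the 36 related genes, 6 rose and 4 fell on HFD under control antibody. That is 27.8% of them, near the 29.9% of all genes. Srebf1, which encodes the SREBP form that drives fatty acid synthesis, rose by 0.79 ± 0.14 (adjusted p = 3.31e-04), from 45.9 ± 9.16 to 79.5 ± 10.1 RPKM (SD, n = 5 and 6). Nr1h3, which encodes the LXR form of the liver, rose by 0.24 ± 0.05 (adjusted p = 0.00222). Rnf139, a ligase of the endoplasmic reticulum that binds INSIG proteins, fell by 0.26 ± 0.06 (adjusted p = 0.00149). Under GCGR antibody, 10 rose and 3 fell, or 36.1% against 29.8% of all genes. Srebf1 rose by 1.02 ± 0.13 (adjusted p = 9.37e-06), Cyb5a, the cytochrome that feeds electrons to sterol oxidases, rose by 0.35 ± 0.06 (adjusted p = 2.53e-04), and Stard5, a lipid carrier, rose by 0.42 ± 0.08 (adjusted p = 3.10e-04).

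For the antibody, few of the 36 passed. On chow, Acly, which makes cytosolic acetyl-CoA from citrate, fell by 0.59 ± 0.14 under GCGR antibody (adjusted p = 0.0479) from 65.0 ± 12.8 to 42.7 ± 7.12 RPKM. That call was close to the threshold and ended in 20 of 33 alternative fits, among them the one without library 1. On HFD, 2 of the 36 rose (5.56%), near the 5.33% of all genes called higher. Scarb1, the receptor that takes cholesterol from HDL into hepatocytes, rose by 0.56 ± 0.10 (adjusted p = 7.82e-04), from 44.1 to 58.4 RPKM with a median of 47.0 to 59.4 to 92.2 RPKM with a median of 71.6. Stard5 rose by 0.36 ± 0.08 (adjusted p = 0.00513), from 30.8 to 40.0 RPKM to 43.7 to 49.6 RPKM. Neither pair of groups overlapped, as was so for 2.85% of all genes, and both calls held in each of the 33 alternative fits. Averaged over diets, Scarb1 (0.35 ± 0.07, adjusted p = 0.00281) and Stard5 (0.23 ± 0.06, adjusted p = 0.0134) rose and Acly fell by 0.44 ± 0.10 (adjusted p = 0.00734), and the call of Stard5 ended after median-ratio scaling (adjusted p = 0.0589). Across all genes, the antibody calls on HFD were 636 higher and 253 lower, and 377 higher and 412 lower after quantile normalization.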

How the data were processed

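RNA of mouse liver was made into 23 strand-specific KAPA mRNA libraries and, per the labels' protocols, read from 1 end in 33 cycles (HiSeq 2500). The authors deposited 1 table of RPKM values per gene and library. bcl2fastq 2.17, FastQC and GRCm38 were used, per the submitters' processing notes. Aligner, counting method and annotation: not given in the sources used here. Count models do not apply to RPKM, and absolute depth is unknown. Of the RPKM of 1933 low genes, 91.3% lay within 0.1 of a whole multiple of a step, which gave relative depths only.

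Groups were read from the sample titles. limma 3.58.1 (R 4.3.3) was fitted to log2(RPKM + 1) with 4 group means and a mean-variance trend, and tests were two-sided. The filter asked for 0.5 RPKM or more in 5 or more libraries and passed 11939 of 24475 genes, and p-values were adjusted over all of them by Benjamini-Hochberg. Differences on this scale understate changes of low genes. Promoters came from RefSeq. The scripts were tested on simulated data. Values are given for genes called in a comparison and for Hmgcs1, Sqle, Insig1 and Srebf2, and for at most 3 related genes per comparison. The genes, lists and rules were chosen with earlier results of these data known. Pseudocount, filter, scaling, array weights, the samples fitted and single libraries were varied. Some sterol genes of the table are not reported here.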

Additional observations from a re-analysis of the deposited data

Results flagged for a closer look

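In 17 of 112 combinations of a sterol gene and a group, 1 library lay far from the rest of its group (Dixon's criterion at 95%, which chance meets in about 1 in 20 groups). Library 1 was the high one in 15 of them. Among the mevalonate genes its RPKM was 84.0 for Acat2, 352 for Hmgcs1, 96.4 for Pmvk and 31.5 for Mvd. Among the isoprene and squalene genes it was 211 for Idi1, 446 for Fdps and 121 for Fdft1. Among the later genes it was 24.8 for Lss, 109 for Cyp51, 135 for Tm7sf2, 222 for Msmo1, 88.0 for Nsdhl, 27.8 for Hsd17b7 and 77.7 for Dhcr7, and for Scap it was 41.8. The nearest other library of that group was at 160 RPKM for Hmgcs1 and at 78.5 RPKM for Tm7sf2. In library 20 Insig2 was high at 163 RPKM, with the nearest other library at 84.8 RPKM. In library 14 Sc5d was low at 189 RPKM, with the nearest at 238 RPKM. These genes share their libraries, so the 15 values of library 1 are not independent of each other.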

How the results depend on the processing

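No paired analysis was possible because each sample number belongs to 1 library only. Calls higher of GCGR antibody on HFD were 1 with all libraries, 6 with array weights, 5 without libraries 19 and 20, 3 without 1 and 20 and 10 without 1, 19 and 20, and calls lower went from 0 to 1 without 19 and 20, also when 1 was left out with them. Averaged over diets, 1 call higher became 0 and 1 call lower appeared after median-ratio scaling, and there were 2 higher with array weights and 2 without 1, 19 and 20. For diet under control antibody, calls higher went from 0 to 4 without 1 and 20 and to 4 without 1, 19 and 20, and calls lower from 4 to 2 without 1 and 20. For diet under GCGR antibody, 1 call higher became 2 with the stricter filter (1 RPKM or more in 11 or more libraries), 2 after median-ratio scaling, 11 with array weights, 9 without 19 and 20, 12 without 1 and 20 and 13 without 1, 19 and 20. Counts over all genes in these fits are not given here, other than the one without 1 and 20 above. The calls gained are therefore not set against a share of all genes. The difference of antibody effects went from 0 calls to 2 with array weights and 1 without 19 and 20. The 17 slopes on Sqle became 6 in chow libraries, 10 in HFD libraries, 8 without the 2 libraries farthest in Sqle, which are 1 and 20, and 7 without 1, 19 and 20. The cause was not tested, beyond the smaller number of samples. With Hmgcs1 as the reference 17 passed, 14 of them shared.

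Leaving out 1 library at a time gave 1 to 3 calls higher for GCGR antibody on HFD, 0 to 2 higher and 0 to 1 lower averaged over diets, 0 to 2 higher and 1 to 5 lower for diet under control antibody, 1 to 6 higher and 1 to 3 lower for diet under GCGR antibody, and 13 to 19 slopes. It gave 0 calls on chow and 0 for the difference between diets. Slope calls ended for Acat2, Pmvk, Mvd and Stard4 without library 20, with slopes of 0.44, 0.66, 0.57 and 0.50 against 0.45, 0.64, 0.70 and 0.45 with all libraries. That of Acat2 also ended without library 1 or 22, and that of Stard4 without 8, 12, 13, 16 or 21. The count without library 20, 13, is the lowest. Fits without libraries 1 and 20, without 1, 19 and 20, with Hmgcs1, and of the scaled ratios of libraries 1 and 20 (1.89 to 2.01 and 0.478 to 0.523) were chosen after seeing the data. Other scalings moved the split of all genes for the antibody averaged over diets from 68.4% higher among the calls to 41.3% (median-ratio) or 44.2% (quantile), and on HFD from 71.5% to 45.6% by median-ratio scaling. For the difference between diets, 15 higher and 9 lower became 7 and 11, or 5 and 10. For diet under control antibody, 1390 higher and 2183 lower became 1828 and 1818 by median-ratio scaling. Array weights raised all calls of the antibody on HFD from 889 to 2033, averaged over diets from 920 to 1850 and for the difference from 24 to 190, and a fit of the HFD groups alone gave 423 on HFD. For the slopes, 28 positive and 2 negative became 35 and 10, or 41 and 13. Absolute depth is unknown, so counting error could not be separated from the spread between libraries.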
